A study of Mus musculus with 25 samples.

Results

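Genes that act in the G2 phase of the cell cycle and in mitosis were followed in blood stem cells that carry the JAK2 mutation V617F. A list of 58 such genes was taken by symbol and mapped to the Ensembl identifiers of the gene count table. All 58 were found among its 13641 genes, and all 58 passed the filter on low counts, which kept 13630 genes.

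Cells sorted as long-term hematopoietic stem cells (HSCs, by the surface profile Lin-Sca1+cKit+CD48-CD150+) were taken from the bone marrow of mice that had been transplanted with donor marrow. All donors are labelled as carrying SclCre, a tamoxifen-inducible Cre recombinase driven by the Scl stem cell enhancer, and a GFP reporter, and tamoxifen was begun 16 weeks after transplantation in every group. There were 25 libraries in 7 groups. The group called WT here is labelled SclCre;GFP (4 libraries, 2 weeks after tamoxifen induction). VF is labelled SclCre;V617F;GFP and adds the mutant JAK2 (4 libraries at 2 weeks and 3 at 4 weeks). Il1bKO is labelled SclCre;V617F;IL-1b-/-GFP and Il1r1KO is labelled SclCre;V617F;IL-1R1-/-GFP, each with 4 libraries at 2 weeks and 3 at 4 weeks. Beside VF, their labels add the loss of interleukin-1 beta, an inflammatory cytokine, or of its receptor. The study's title concerns the part of interleukin-1 beta in the early expansion of JAK2-mutant stem cells. Replicates are numbered 1 to 4 at 2 weeks and 5 to 7 at 4 weeks. The 2 times were processed as 2 batches, so time and batch cannot be told apart, and there was no WT group at 4 weeks. The labels do not say that each library came from a separate animal, so p-values measure only the spread between these samples, which may be partly technical.

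During G2 the cyclin B and Cdk1 kinase is assembled and held inactive until phosphatases of the Cdc25 family release it. Condensins then compact the chromosomes, kinetochores attach them to the spindle, and the spindle checkpoint delays the anaphase-promoting complex (APC/C) until every attachment is made. The chromosomal passenger complex corrects wrong attachments, separase cuts the cohesin that joins sister chromatids, and a contractile ring divides the cell. Most HSCs in adult marrow are quiescent, and transcripts of this program are known to be low in quiescent cells. Its genes are known for a shared promoter design, in which CCAAT boxes are bound by the factor NF-Y and a cell cycle genes homology region (CHR) is bound by MuvB complexes (DREAM in resting cells, with B-Myb and FoxM1 in dividing cells).

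Promoter sequences are shown first because they are what most of these genes share apart from their function. RefSeq promoter windows (build GRCm38.p6), from 250 bases before to 50 after each annotated start, were matched for 48 of the 58 genes. The genes without an entry were Ccna2, Cdc25c, Foxm1, Tpx2, Spc24, Aurkb, Incenp, Smc4, Cdca2 and Kif20a. Below, 280 bases of 7 windows (250 before to 30 after the start) are printed 5′ to 3′ on the gene's strand, with capitals marking every match to CCAAT or to the CHR letters TTTGAA or TTCGAA on either strand. Cdk1 and Ccnb1 encode the kinase and cyclin that start mitosis. Bub1, Kif22 and Cdca8 had the levels most correlated with the other listed genes across the 25 libraries, and Ect2 and Pttg1 had the least correlated levels. The windows lie at chr10:69352883-69353162 (Cdk1), chr13:100786457-100786736 (Ccnb1), chr2:127831830-127832109 (Bub1), chr7:127042391-127042670 (Kif22), chr4:124936888-124937167 (Cdca8), chr3:27153849-27154128 (Ect2) and chr11:43425952-43426231 (Pttg1), all on the minus strand.
Cdk1: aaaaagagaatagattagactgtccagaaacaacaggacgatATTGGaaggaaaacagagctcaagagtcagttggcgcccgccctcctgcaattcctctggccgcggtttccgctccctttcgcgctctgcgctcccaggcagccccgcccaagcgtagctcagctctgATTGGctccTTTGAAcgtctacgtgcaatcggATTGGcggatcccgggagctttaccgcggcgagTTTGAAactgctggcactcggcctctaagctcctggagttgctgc
Ccnb1: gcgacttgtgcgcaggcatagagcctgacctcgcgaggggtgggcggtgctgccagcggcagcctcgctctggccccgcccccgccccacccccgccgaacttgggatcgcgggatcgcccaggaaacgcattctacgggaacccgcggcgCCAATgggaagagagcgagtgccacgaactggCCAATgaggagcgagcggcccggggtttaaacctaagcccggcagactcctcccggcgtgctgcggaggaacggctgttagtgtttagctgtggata
Bub1: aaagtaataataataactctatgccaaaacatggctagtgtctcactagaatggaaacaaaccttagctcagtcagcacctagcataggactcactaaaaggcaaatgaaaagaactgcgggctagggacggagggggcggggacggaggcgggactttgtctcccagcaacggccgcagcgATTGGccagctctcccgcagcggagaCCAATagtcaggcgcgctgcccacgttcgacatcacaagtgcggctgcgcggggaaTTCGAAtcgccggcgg
Kif22: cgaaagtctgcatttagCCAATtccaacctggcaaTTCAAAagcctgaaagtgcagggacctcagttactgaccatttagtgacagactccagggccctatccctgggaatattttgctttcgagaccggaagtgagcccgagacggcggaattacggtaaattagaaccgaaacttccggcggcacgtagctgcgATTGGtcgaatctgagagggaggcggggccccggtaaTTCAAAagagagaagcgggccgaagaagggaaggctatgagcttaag
Cdca8: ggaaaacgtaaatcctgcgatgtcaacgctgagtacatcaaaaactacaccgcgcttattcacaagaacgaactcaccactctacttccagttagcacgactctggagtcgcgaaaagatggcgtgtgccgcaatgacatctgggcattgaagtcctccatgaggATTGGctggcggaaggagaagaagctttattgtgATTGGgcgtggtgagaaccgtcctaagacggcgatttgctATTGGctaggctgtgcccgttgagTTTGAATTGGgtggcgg
Ect2: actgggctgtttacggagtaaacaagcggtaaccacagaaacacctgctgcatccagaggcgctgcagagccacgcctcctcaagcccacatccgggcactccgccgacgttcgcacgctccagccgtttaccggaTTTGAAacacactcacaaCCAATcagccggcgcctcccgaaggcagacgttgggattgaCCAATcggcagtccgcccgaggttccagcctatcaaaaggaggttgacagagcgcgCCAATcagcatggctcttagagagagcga
Pttg1: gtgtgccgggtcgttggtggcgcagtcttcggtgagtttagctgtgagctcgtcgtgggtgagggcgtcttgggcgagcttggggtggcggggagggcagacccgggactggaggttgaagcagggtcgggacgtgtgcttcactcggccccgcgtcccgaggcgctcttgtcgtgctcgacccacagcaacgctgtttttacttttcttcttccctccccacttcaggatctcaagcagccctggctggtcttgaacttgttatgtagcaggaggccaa
In these stretches Cdk1 held 3 CCAAT matches and 2 CHR matches, Ccnb1 held 2 and 0, Bub1 held 2 and 1, and Kif22 held 2 and 2. Cdca8 held 4 CCAAT matches and 1 CHR match, the last CCAAT match sharing bases with the CHR match. Ect2 held 3 and 1, and Pttg1 held 0 of either. The Cdca8 and Pttg1 windows lie wholly within the Ensembl genes (chr4:124918465-124939311 and chr11:43420250-43426251). The bases before those gene starts were therefore not searched.

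Both motifs were found in a larger share of the mitosis and G2 genes than of all promoters. CCAAT, searched on both strands, was found in 37 of 48 windows (77.1%), against 38% of all 27025 genes with a window and 38.9% of the tested genes outside the list. CHR letters (TTTGAA on both strands and TTCGAA, which reads the same on both) were found in 37 of 48 windows (77.1%), against 19.5% of all genes and 13.9% of tested genes outside the list. Both together were found in 33 (68.8%), against 7.73% and 5.84%. Neither was found in 7 windows, those of Tacc3, Nusap1, Nuf2, Mad2l1, Birc5, Ncaph and Pttg1. These are matches to short letter strings and were not tested as binding sites, and where a gene had several windows the most upstream was used. In 35 of the 48 windows the bases after the start matched an annotated transcript of the gene near its beginning. CHR matches lay close to the start, with a median position of -1 and 36 of 50 matches (72.0%) within 50 bases of it. CCAAT matches lay further upstream, with a median position of -66 over 84 matches. Genes of 3 other lists held both motifs in 41.5% of 41 other mitosis genes, 16.7% of 42 S phase genes and 0 of 14 APC/C genes.

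**Figure D1:**
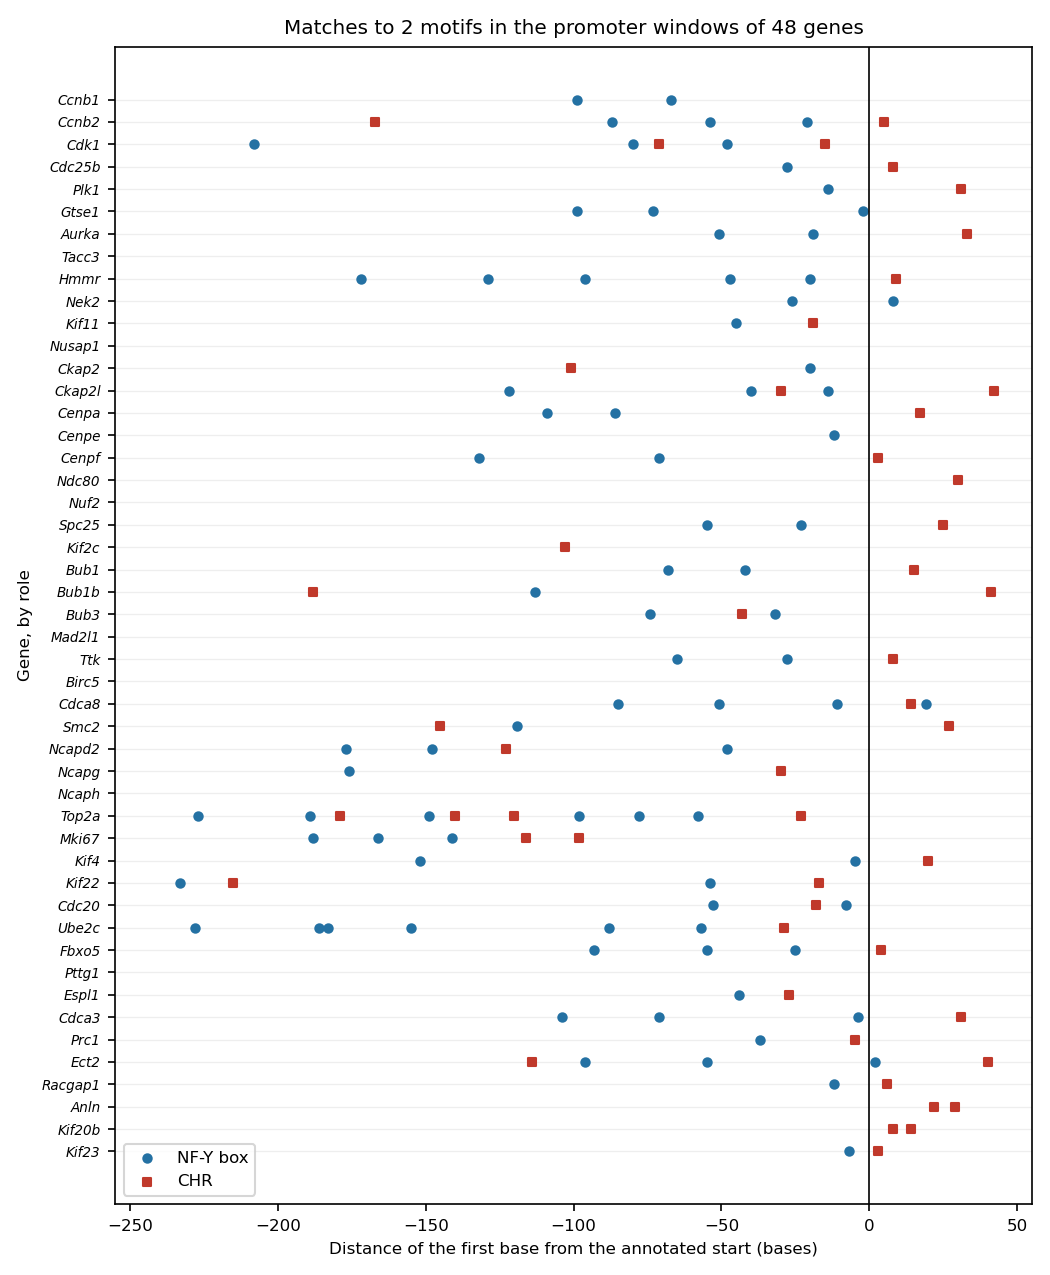
Position of each CCAAT match (blue circles, NF-Y box) and CHR match (red squares) in the promoter windows of 48 mitosis and G2 genes, as the distance of the first base from the annotated start in bases. CHR matches gather around the start (median position -1) and CCAAT matches upstream of it (median position -66), and 7 windows hold neither.

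All 58 genes were expressed in these sorted cells. Levels are given as CPM (counts scaled to library size with TMM factors, so that values are relative to the total of a library). Library totals ran from 21990959 to 40178173 counts, and the fewest reads of any of the 58 genes in a library was 214, except in Il1bKO_4w replicate 5, where Kif11 had 1 read. Their counts together made up from 0.326% of a library's counts (WT_2w replicate 1) to 1.09% (Il1r1KO_4w replicate 5). The summed level differed 3.76-fold between these 2 libraries, at 3165 and 11890 CPM. In sorted bulk RNA, more cells in G2 and mitosis and more of these transcripts per cell cannot be told apart.

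Some features of the libraries stand beside these results. Il1b had 0 reads in all 7 Il1bKO libraries and 0 to 391 reads in the 7 VF libraries, the 391 being in VF_4w replicate 6. Whole-gene counts of Il1r1 were 271 to 882 reads in the 7 Il1r1KO libraries and 190 to 625 in the VF libraries. These counts therefore do not show the loss of the receptor that the label names. Reads on part 1 of the human JAK2 construct were at least 65.8 CPM in the 21 mutant libraries and at most 0.733 CPM in the libraries labelled WT. They were at 140 to 218 CPM in the 7 Il1r1KO libraries and at 99.7 to 130 CPM in the 7 VF libraries, with no overlap. Part 2 was at 81.6 to 115 CPM and at 39.1 to 60.8 CPM in the same order. In the 7 Il1bKO libraries part 1 was at 65.8 to 125 CPM. CreERT2, the inducible Cre, had 0, 0, 1 and 0 reads in the libraries labelled WT although their label names SclCre. Among the mutants it was at 195 to 388 CPM in VF and at 445 to 828 CPM in Il1bKO, with no overlap. In Il1r1KO it was at 321 to 595 CPM. The GFP reporter (pEGFP) ran from 83 reads (WT_2w replicate 3) to 27442 reads in the libraries labelled WT, so it was not uniform among them. It had at least 10221 reads in every mutant library. It was at 868 to 1473 CPM in the Il1r1KO libraries, 462 to 541 CPM in VF and 385 to 530 CPM in Il1bKO. In Il1bKO_4w replicate 5 only 11871 genes were detected, and its level relative to the other libraries varied from gene to gene within the list (SD of the log2 deviations 1.18, against 0.16 to 0.42 elsewhere).

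Levels can be compared between genes only per length of exon. On the scale of mean CPM per kb of exon over the 25 libraries, the highest of the 58 was Ccnb2 (cyclin B2) at 96.4. Cdc20, the activator of the APC/C, followed at 69.1, Smc4, the core ATPase of condensin, at 59.6 and Ccna2 (cyclin A2) at 48.6. The lowest were Espl1, which encodes separase, at 4.06, the phosphatase gene Cdc25c at 5.09 and Foxm1, which encodes a transcription factor of the mitotic program, at 5.28. Within the spindle genes Tacc3 was highest (30.7) and the kinase gene Nek2 lowest (9.75). Within the kinetochore genes Spc24, of the Ndc80 complex, was highest (24.8) and Cenpf lowest (6.22), and within the checkpoint genes Bub3 was highest (35.4) and the kinase gene Ttk lowest (8.07). Among the chromosomal passengers Birc5 (survivin) was highest (33.4) and Incenp, the scaffold, lowest (16.9). The kinesin gene Kif4 was lowest of the chromosome structure genes (8.36), and of the cytokinesis genes Kif20a was highest (28.2) and Anln, which encodes anillin of the contractile ring, lowest (5.45).

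**Figure D2:**
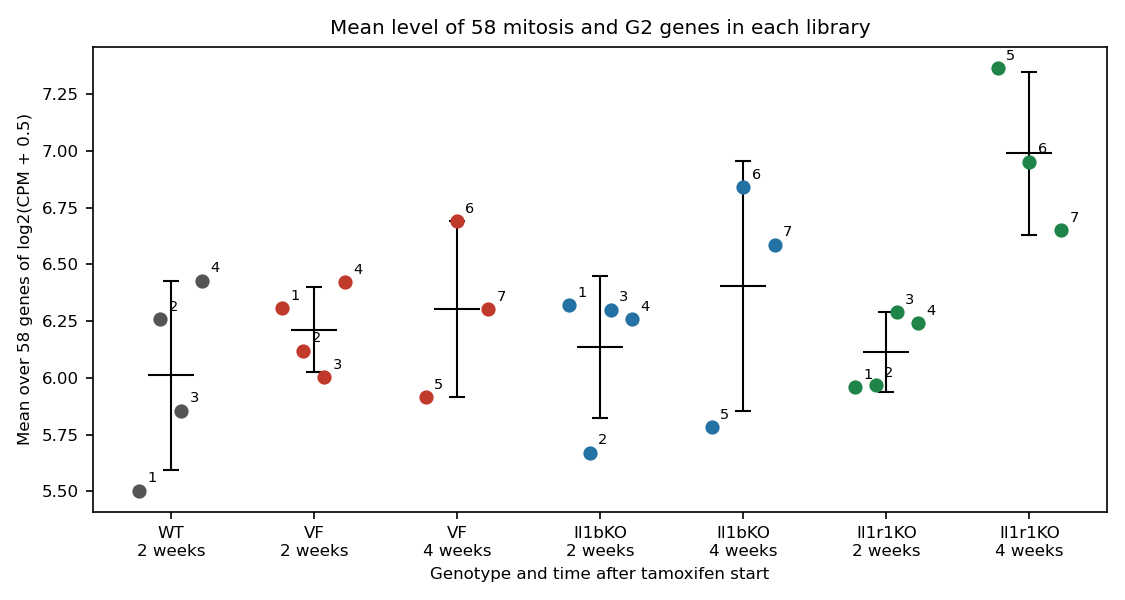
Mean over the 58 mitosis and G2 genes of log2(CPM + 0.5) in each library, by genotype and time, with the group means. The 3 Il1r1KO libraries at 4 weeks lie at 6.65, 6.95 and 7.37, above all 16 libraries of 2 weeks. So do VF_4w replicate 6 (6.69) and Il1bKO_4w replicates 6 (6.84) and 7 (6.59). The 4 WT libraries spread from 5.5 to 6.43.

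The mean log2 level of the 58 genes summarises each library on the scale log2(CPM + 0.5), in which differences of low levels are understated. It was 6.01 ± 0.416 (SD, n = 4) in WT, 6.21 ± 0.187 (n = 4) in VF, 6.14 ± 0.313 (n = 4) in Il1bKO and 6.11 ± 0.176 (n = 4) in Il1r1KO at 2 weeks. At 4 weeks it was 6.30 ± 0.388 (n = 3) in VF, 6.40 ± 0.552 (n = 3) in Il1bKO and 6.99 ± 0.359 (n = 3) in Il1r1KO. Ordered by these means (WT, Il1r1KO, Il1bKO and VF at 2 weeks, then VF, Il1bKO and Il1r1KO at 4 weeks), neighbouring groups differed by less than either of their SDs except at the top, where Il1r1KO at 4 weeks stood above Il1bKO at 4 weeks by more than either SD. Single libraries weighed heavily on these extremes. Of the 58 genes, 44 had their highest value in Il1r1KO_4w replicate 5 and 6 in Il1r1KO_4w replicate 6. Their lowest values fell in WT_2w replicate 1 for 31 genes and in Il1bKO_4w replicate 5 for 12.

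**Figure D3:**
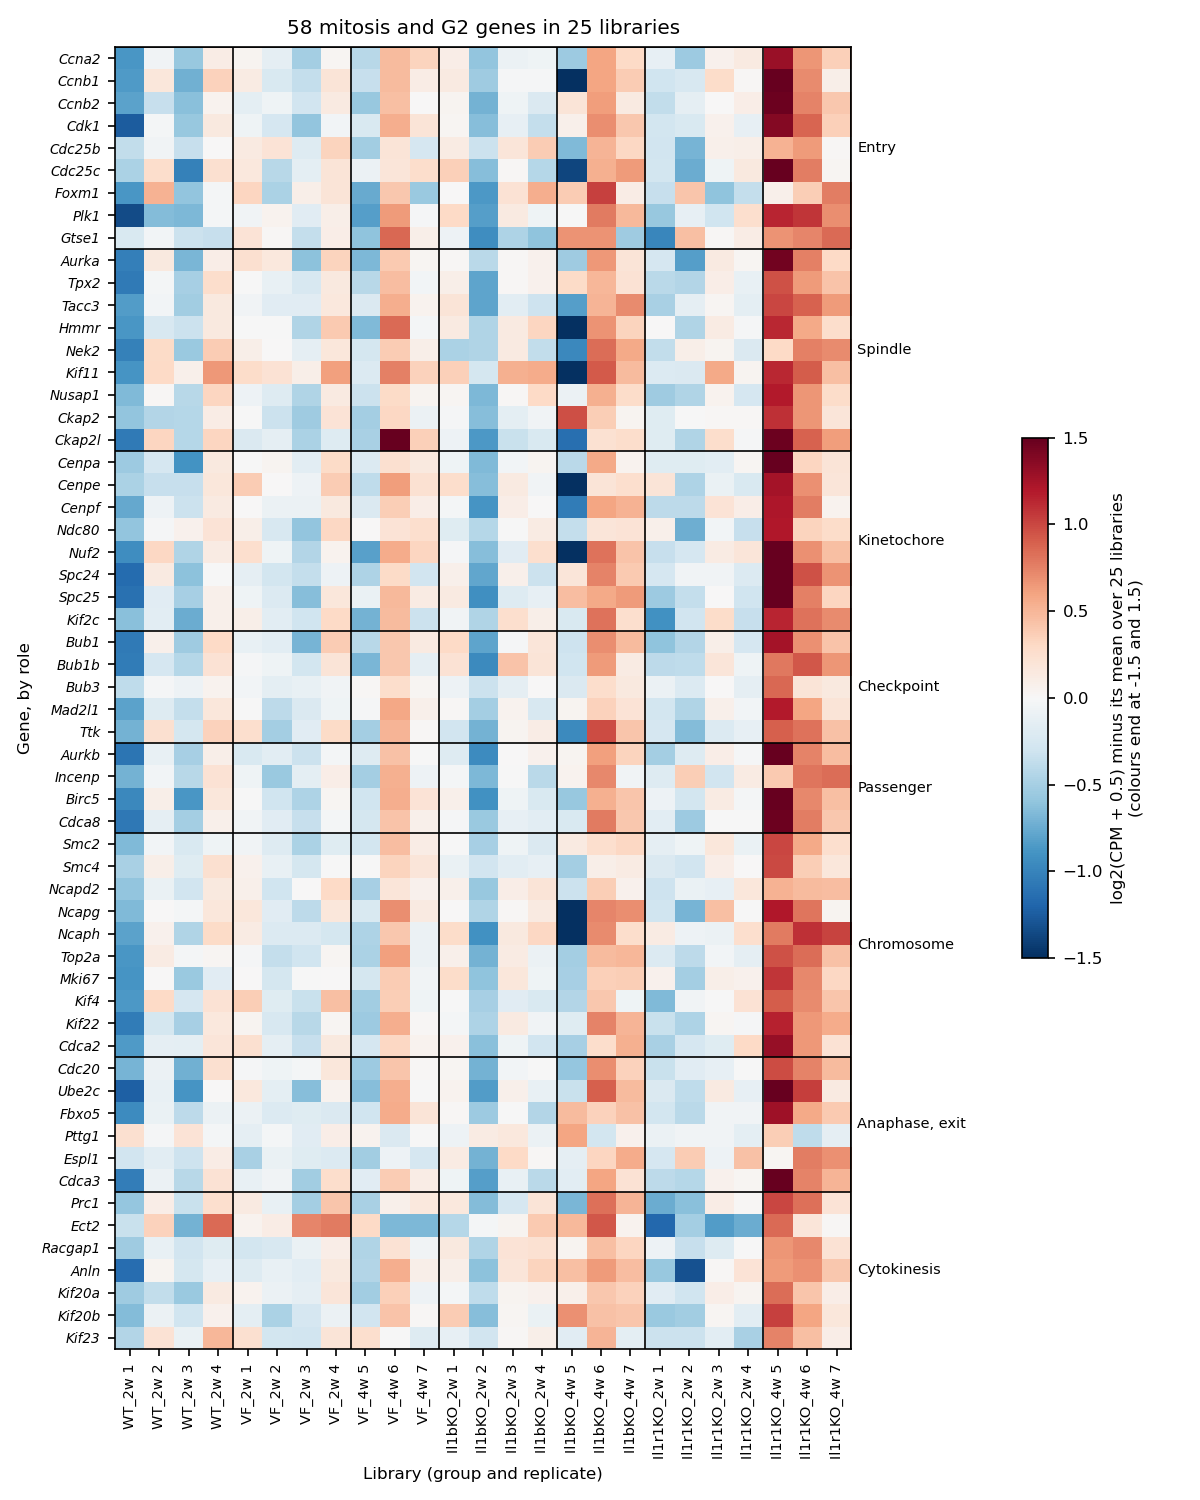
Level of each of the 58 genes (rows, grouped by role) in each of the 25 libraries (columns), as log2(CPM + 0.5) minus the gene's mean over the libraries. Most rows are high together in Il1r1KO_4w replicate 5, which holds the highest value of 44 genes, and low together in WT_2w replicate 1, which holds the lowest of 31.

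The 58 genes rose and fell together from library to library. Over the 1653 pairs of genes and 25 libraries the median Spearman correlation was 0.76, and it was 0.74 on deviations from the group means and 0.80 without Il1bKO_4w replicate 5. These correlations describe libraries that share genotype, time and depth, and they carry no test. Bub1, a checkpoint kinase gene, had the highest mean correlation with the other 57 (0.81), followed by Kif22, a chromosome arm kinesin gene (0.80), and Cdca8, which encodes borealin (0.79). Pttg1, which encodes securin, the inhibitor of separase, ran the other way (-0.30), and Ect2, a gene of cytokinesis, and Foxm1 followed the rest only weakly (0.28 and 0.45). All 25 values of Pttg1 lay between 36.1 and 71.0 CPM, and both ends of that range were in libraries of 4 weeks. Outside the list, the 8 genes whose level was most like the mean of the 58 over the 25 libraries were Cks2 (Spearman 0.95), Jpt1 (0.92), Ppil1 (0.92), Cdkn3 (0.92), Tmpo (0.92), Sgo1 (0.91), H2afx (0.91) and Kpna2 (0.91). Among the 58 themselves the median correlation with their mean was 0.86, and among the 13572 tested genes outside the list it was -0.04, with 100 of those above 0.8.

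At 2 weeks no difference between VF and the libraries labelled WT passed the test in any of the 58 genes. These groups differ in CreERT2 reads as well as in the mutant JAK2, and the effects of the 2 cannot be told apart. Genes were called at an adjusted p under 0.05 in edgeR's quasi-likelihood test with Benjamini-Hochberg adjustment over 13630 genes. In VF against WT at 2 weeks 0 of 58 were called (0.00734% of all tested genes were), and 0 passed an unadjusted p of 0.05 (2.27% of all tested genes did). DESeq2 and limma voom with sample quality weights also called 0 of the 58. The median log2 fold change of the 58 was 0.17, and 0.00 over all genes, with 50 of 58 above 0. The median was 0.012 without WT_2w replicate 1, 0.34 without WT_2w replicate 4 and 0.29 without WT_2w replicates 3 and 4. Plk1, the polo-like kinase of mitotic entry, had the lowest p of the 58. Its levels were 13.4, 22, 21.6 and 33.9 CPM in WT and 33.4, 35.8, 30.7 and 37.0 CPM in VF. All but 1 of the WT libraries lay below every VF library, and the highest WT library overlapped them (log2 fold change 0.59 ± 0.29 SE, unadjusted p = 0.055 and adjusted p = 1 by edgeR). Kif20a, a cytokinesis kinesin gene, and Cenpa, the centromere histone gene, came next by p, with log2 fold changes of 0.31 and 0.38. With the 3 mutant genotypes averaged against WT, 0 of 58 were called (0.0367% of all genes) by edgeR, DESeq2 or limma voom, and 1, Plk1 (0.54 ± 0.25 SE), passed an unadjusted p of 0.05 (4.13% of all genes). The median log2 fold change in that comparison was 0.13, and it turned to -0.042 without WT_2w replicate 1, the library with the lowest mean level.

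Between 2 and 4 weeks, genes of every step of mitosis rose in the average of the 3 mutant genotypes. In that average 29 of the 58 genes rose and 0 fell (14.4% of all tested genes were called and 8.53% were called higher), and all 58 log2 fold changes were above 0. The median log2 fold change of the 58 was 0.47, a 1.39-fold higher level, beside -0.03 over all genes. DESeq2 called 35 of the 58 higher (9.63% of all genes) and limma voom 44 (10.6%). This contrast is one of time and processing batch together. By genotype, edgeR called 0 of 58 in VF (0.022% of all genes), 0 in Il1bKO (0.748%) and 18 in Il1r1KO (2.46%), as given further below.

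Among the genes of mitotic entry, 5 of 9 rose, with a median of 0.57 over the 9. Cdk1 stood at 111, 97.9, 77.3 and 113 CPM in VF, 119, 74.6, 107 and 90.7 CPM in Il1bKO and 96.0, 99.5, 121 and 107 CPM in Il1r1KO at 2 weeks. At 4 weeks it stood at 99.3, 171 and 134 CPM, at 123, 189 and 154 CPM and at 304, 214 and 149 CPM in the same order. All but 1 of the 9 libraries of 4 weeks lay above all 12 mutant libraries of 2 weeks, VF_4w replicate 5 being the exception (log2 fold change 0.72 ± 0.15 SE, adjusted p = 0.00443 by edgeR). Ccnb2 (0.57), Ccna2 (0.52), Plk1 (0.58) and Gtse1 (0.64), a microtubule-binding gene of G2, also rose. Ccnb1, cyclin B1, had a log2 fold change of 0.45 ± 0.23 SE, which was not called (adjusted p = 0.206 by edgeR). Its levels at 4 weeks ran from 24.2 CPM in Il1bKO_4w replicate 5 to 256 CPM in Il1r1KO_4w replicate 5, on both sides of the 54.4 to 96.4 CPM of the mutant libraries at 2 weeks. Foxm1 had 0.28 ± 0.21 SE (adjusted p = 0.41 by edgeR).

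Of the spindle genes 5 of 9 rose (median 0.48), namely Tpx2 (0.48), which activates the Aurora A kinase, Tacc3 (0.58), Nusap1 (0.50), Ckap2 (0.51) and Ckap2l (0.77). Of the kinetochore genes 2 of 8 rose (median 0.46), and both belong to the part of the Ndc80 complex that faces the chromosome. Spc25 was at 35.7 to 76.3 CPM in the 12 mutant libraries of 2 weeks and at 63.1 to 192 CPM in the 9 of 4 weeks (log2 fold change 0.79 ± 0.16 SE, adjusted p = 0.0033 by edgeR). The ranges overlapped through VF_4w replicates 5 and 7. Spc24, its partner, had a log2 fold change of 0.66. Ndc80, of the microtubule-binding part, had 0.43 and lay at the threshold (adjusted p = 0.0501 by edgeR). Of the checkpoint genes 3 of 5 rose (median 0.54): Mad2l1 (0.55), Bub3 (0.32) and Bub1 (0.56, adjusted p = 0.0478, the called gene nearest the threshold). Bub1b, which encodes BubR1, had 0.35 (adjusted p = 0.172 by edgeR).

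The chromosomal passenger genes were the role in which every member rose, 4 of 4 with a median of 0.64: Aurkb, the kinase (0.67), Cdca8 (0.65), Birc5 (0.64) and Incenp (0.47). Aurkb was at 44.6 to 92.4 CPM in the 12 mutant libraries of 2 weeks and at 75.2 to 260 CPM in the 9 of 4 weeks, with the lowest of the latter in VF. Of the chromosome structure genes 4 of 10 rose (median 0.40). These were the condensin ATPase genes Smc2 (0.48) and Smc4 (0.33), Kif22 (0.57) and Top2a, topoisomerase II alpha (0.51). Mki67, which encodes the Ki-67 antigen used to mark dividing cells, had 0.35 ± 0.14 SE and was not called (adjusted p = 0.0983 by edgeR). The condensin I genes Ncapd2 (0.19), Ncapg (0.46) and Ncaph (0.34) were not called either.

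Of the anaphase and exit genes 3 of 6 rose (median 0.55). Fbxo5, which encodes the APC/C inhibitor Emi1, had the lowest p of the 58. It was at 60.0 to 65.7 CPM in VF, 47.5 to 70.5 in Il1bKO and 52.6 to 67.1 in Il1r1KO at 2 weeks. At 4 weeks it was at 56.6, 102 and 79.4 CPM in VF, 97.0, 88.5 and 94.5 in Il1bKO and 169, 104 and 91.8 in Il1r1KO. All libraries of 4 weeks but VF_4w replicate 5 lay above all mutant libraries of 2 weeks (log2 fold change 0.67 ± 0.12 SE, adjusted p = 0.00218 by edgeR). Cdca3 (0.66) and Ube2c (0.73), which encodes the ubiquitin-conjugating enzyme of the APC/C, rose as well. Cdc20 had 0.44 and was just outside the threshold (adjusted p = 0.0544 by edgeR), Espl1 had 0.22 and Pttg1 had 0.07. Of the cytokinesis genes 3 of 7 rose (median 0.33): the kinesin gene Kif20b (0.60), Racgap1 of centralspindlin (0.33) and Anln (0.52).

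The number of genes called depended on single libraries of 4 weeks. It was 13 without VF_4w replicate 6, 15 without Il1r1KO_4w replicate 5, 18 without Il1bKO_4w replicate 6 and 44 without Il1bKO_4w replicate 5. It was 18 without VF_4w replicate 6, Il1bKO_4w replicate 5 and Il1r1KO_4w replicate 5 together. In every alternative that kept the 3 genotypes, 12 of the 29 were called: Aurkb, Bub3, Cdca3, Cdca8, Cdk1, Fbxo5, Kif20b, Kif22, Mad2l1, Smc2, Spc24 and Spc25.

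The difference between the times was taken apart by genotype, in a comparison added after the planned ones. In VF 0 of 58 genes were called by edgeR (0.022% of all genes), with 2 past an unadjusted p of 0.05 (8.48% of all genes), Ckap2l higher (0.95, adjusted p = 0.514) and Ect2 lower (-0.74, adjusted p = 0.562). DESeq2 and limma voom called 0 as well. The median log2 fold change in VF was 0.14 and turned to -0.10 without VF_4w replicate 6. Smc2, next by p, had 0.35. In Il1bKO 0 of 58 were called by edgeR, DESeq2 or limma voom (0.748% of all genes by edgeR), 12 passed an unadjusted p of 0.05, all higher (9.55% of all genes were higher by that rule), and the median was 0.36, which was 0.17 without Il1bKO_4w replicate 6 and 0.59 without Il1bKO_4w replicate 5. The lowest p there belonged to Fbxo5 (0.65), Ckap2 (0.71) and Spc25 (0.79), the first with an adjusted p of 0.135.

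In Il1r1KO 18 of 58 rose (2.46% of all genes were called and 1.67% called higher), all 58 fold changes were above 0, and the median was 0.92, a 1.90-fold higher level. In 46 of the 58 genes all 3 libraries of 4 weeks lay above all 4 libraries of 2 weeks (9.17% of all tested genes did so). Spc24 showed it most clearly, at 49.6, 56.7, 56.8 and 51.2 CPM at 2 weeks and at 169, 115 and 94.6 CPM at 4 weeks. Its lowest library of 4 weeks stood well above its highest of 2 weeks (log2 fold change 1.24 ± 0.26 SE, adjusted p = 0.0239 by edgeR). Ube2c had the largest of the called log2 fold changes (1.45 ± 0.38 SE), its levels being 71.9, 63.8, 91.7 and 76.7 CPM at 2 weeks and 358, 171 and 91.9 CPM at 4 weeks. Here the groups were separated only by the margin between 91.7 and 91.9 CPM. The other genes that rose were Fbxo5 (0.99), Spc25 (1.23), Kif2c (1.17), a microtubule-depolymerising kinesin gene, Cdca3 (1.20), Cdca8 (1.11), Aurkb (1.16), Ccnb2 (1.04), Cdk1 (1.07), Nusap1 (1.04), Kif22 (1.0), Kif20b (0.93), Mad2l1 (0.88), Kif23 (0.78), Racgap1 (0.70), Smc2 (0.67) and Bub3 (0.55). The 12 genes whose libraries overlapped between the times were Ccnb1, Cdc25b, Cdc25c, Cdca2, Cenpe, Cenpf, Espl1, Foxm1, Kif11, Kif20a, Ncapg and Pttg1.

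DESeq2 called 38 of the 58 higher in Il1r1KO (3.92% of all genes) and limma voom 23 (2.47%). The edgeR count was 0 without Il1r1KO_4w replicate 5, Il1r1KO_2w replicate 1 or Il1r1KO_2w replicate 4, 1 without Il1r1KO_2w replicate 2, 6 without Il1r1KO_2w replicate 3 and 38 without Il1r1KO_4w replicate 7. The median log2 fold change stayed at 0.68 or more in each of these. Of the 18 genes called, 0 were called in every alternative.

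**Figure D4:**
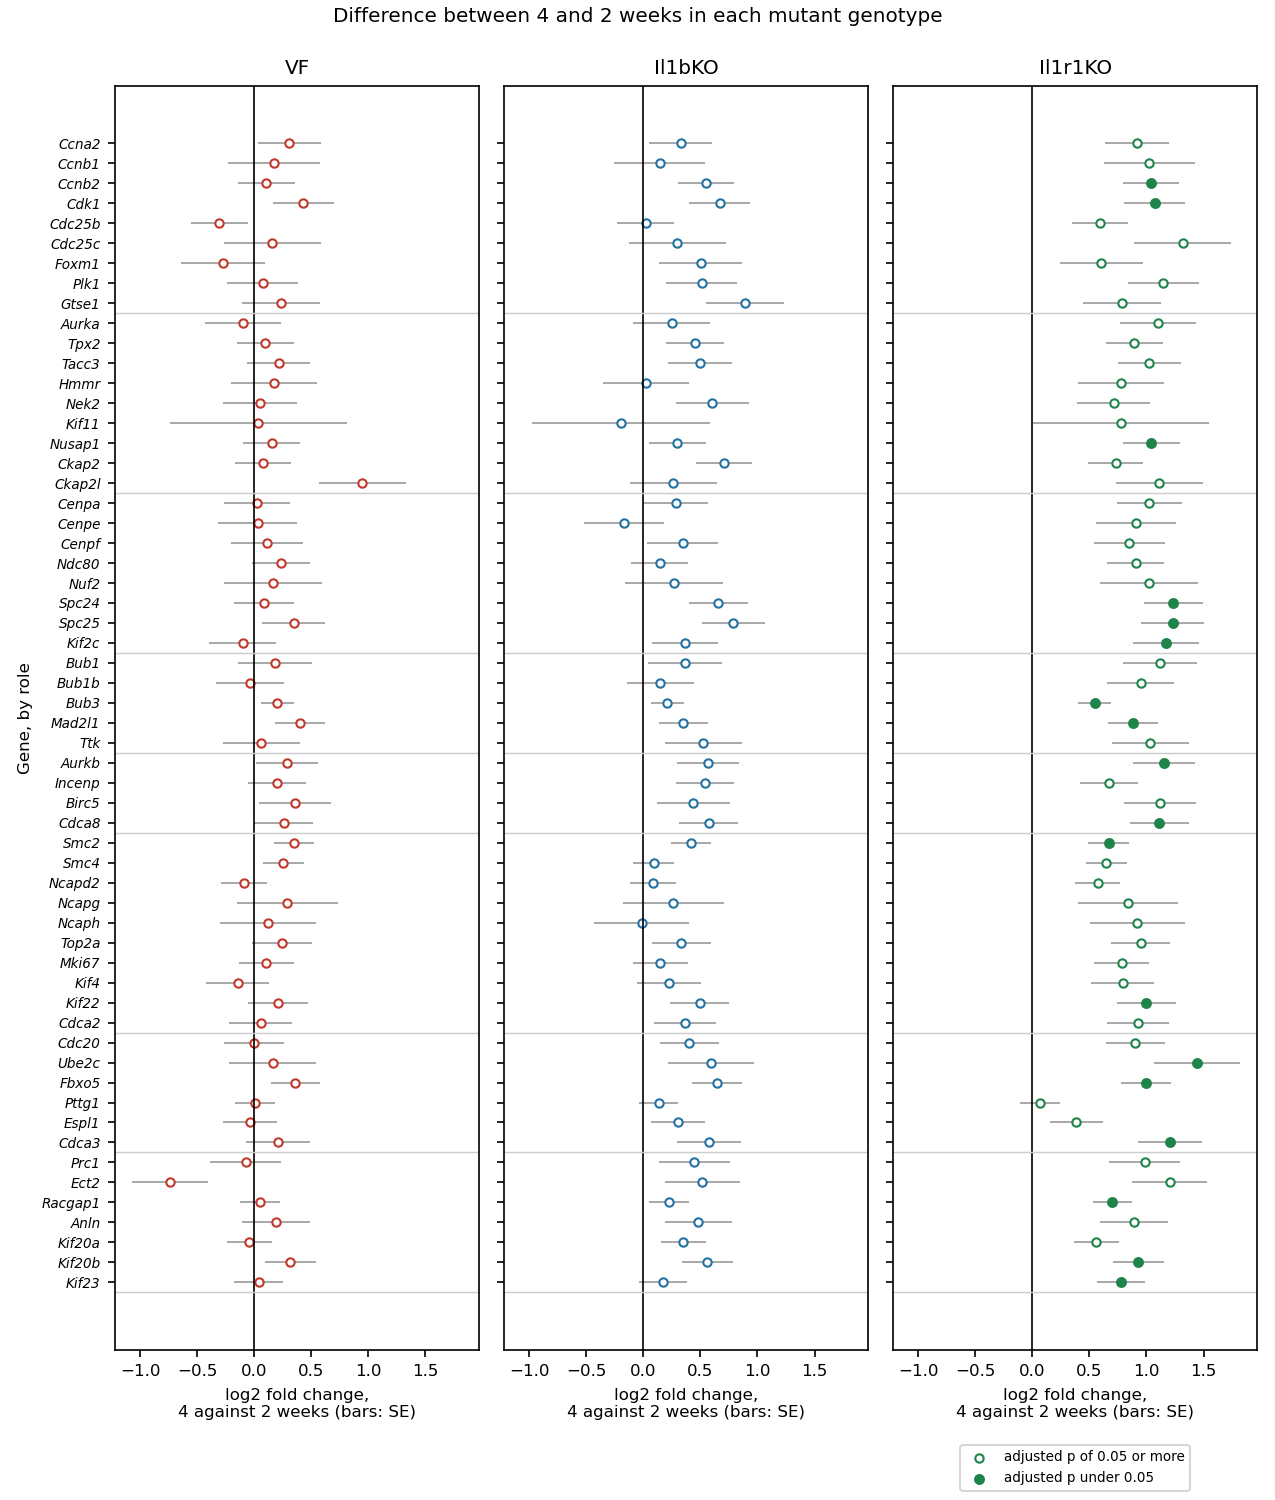
Log2 fold change between 4 and 2 weeks of each of the 58 genes in VF, Il1bKO and Il1r1KO, with standard errors as bars; filled points have an adjusted p under 0.05 by edgeR. Filled points appear in Il1r1KO alone, where 18 of 58 genes were called, and whether genotypes differed in this change was tested separately.

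Whether the change between the times differed from that in VF was tested as an interaction term in the same fit. For Il1r1KO the median difference in log2 fold change was 0.79 with all 58 above 0, 25 genes passed an unadjusted p of 0.05 (2.25% of all genes were higher by that rule), and 0 were called (0% of all genes). Ect2 had the lowest p (1.94 ± 0.47 SE, adjusted p = 0.579 by edgeR), then Spc24 (1.15) and Kif2c (1.27). DESeq2 called 1 of the 58, Ect2 (0.0367% of all genes were called higher). For Il1bKO 0 were called by edgeR, DESeq2 or limma voom (0.0147% of all genes by edgeR), 1 passed an unadjusted p of 0.05 (8.28% of all genes), again Ect2 (1.25, adjusted p = 0.526), and the median was 0.27, which was 0.071 without Il1bKO_4w replicate 6 and 0.46 without VF_4w replicate 6.

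The genotypes were then compared at each time. These comparisons share the VF libraries with one another and with the contrast of times, so their values are given side by side and not counted as separate support. The mutant genotypes also differed in reads on the JAK2, CreERT2 and GFP constructs, as given above. The part of these differences in the comparisons was not tested. At 2 weeks, loss of Il1b left 0 of 58 called against VF by edgeR, DESeq2 or limma voom (0.00734% of all genes by edgeR) and 0 past an unadjusted p of 0.05 (1.36% of all genes), with a median of -0.05. The lowest p belonged to Gtse1 (-0.51), Ect2 (-0.44) and Kif4 (-0.33). In Il1r1KO against VF 0 were called by edgeR (0.0514% of all genes) and 1, Ect2, passed an unadjusted p of 0.05 (3.15% of all genes), with a median of -0.08. Espl1 (0.39) and Kif23 (-0.31) came next.

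Ect2 was the gene of lowest p among the 58 in Il1r1KO against VF at 2 weeks. It was at 48.4, 50.6, 77.7 and 80.3 CPM in VF and at 20.4, 32.6, 25.9 and 27.7 CPM in Il1r1KO. Every Il1r1KO library was below every VF library, a separation found in 1 of the 58 genes and in 285 of all 13630 tested genes. The log2 fold change was -1.27 ± 0.31 SE, with an adjusted p of 0.425 by edgeR, while DESeq2 called it (0.103% of all genes were called lower by DESeq2). By 4 weeks the order was the other way, with 57.6, 29.1 and 29.0 CPM in VF and 84.2, 52.9 and 47.2 CPM in Il1r1KO, and the groups overlapped. In Il1bKO Ect2 was at 34.5 to 61.5 CPM at 2 weeks and at 65.7, 89.4 and 48.4 CPM at 4 weeks. In the libraries labelled WT it was at 36.8, 59.3, 28.4 and 84.3 CPM at 2 weeks.

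At 4 weeks all 58 log2 fold changes of Il1r1KO against VF were above 0, and none passed the adjusted threshold in edgeR. The median log2 fold change was 0.68, a 1.60-fold higher level, 0 of 58 were called (0.147% of all genes) and 39 passed an unadjusted p of 0.05, all higher (6.54% of all genes were higher by that rule). DESeq2 called 2 of the 58 higher (0.559% of all genes) and limma voom 9 (1.5%). Spc24 had the lowest p, at 42.7, 71.9 and 48.3 CPM in VF against the 94.6 to 169 CPM of Il1r1KO. All Il1r1KO libraries lay above all VF libraries (log2 fold change 1.22 ± 0.28 SE, adjusted p = 0.0814 by edgeR, and 0.00564 to 0.608 over its alternatives). Ccnb2 (0.93, adjusted p = 0.158) and Racgap1 (0.62, adjusted p = 0.18) followed.

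In 17 of the 58 genes all 3 Il1r1KO libraries lay above all 3 VF libraries (6.46% of all tested genes did so). They were Aurkb, Bub1, Bub1b, Cdc20, Cdca3, Espl1, Kif22, Kif2c, Kif4, Ncapd2, Ncaph, Ndc80, Plk1, Prc1, Racgap1, Spc24 and Tacc3. In some of them the margin from the highest VF to the lowest Il1r1KO library was narrow. It was 127.0 to 127.1 CPM in Racgap1 and 54.8 to 55.6 CPM in Ndc80. Bub1b stood at 61.3, 131 and 90 CPM in VF and at 171, 188 and 157 CPM in Il1r1KO, and Cdc20 at 84.5, 164 and 125 against 243, 207 and 171 CPM. In both genes VF_4w replicate 6 was the nearest VF library. Mki67 was at 172, 270 and 200.5 CPM against 436, 340.5 and 257 CPM, so its groups overlapped, as did those of Top2a (215, 459 and 282 against 578, 536 and 406 CPM). The count called by edgeR was 3 without VF_4w replicate 6, and the median was 0.93 without it and 0.48 without Il1r1KO_4w replicate 5.

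In Il1bKO against VF at 4 weeks the median was 0.21, 0 of 58 were called by edgeR, DESeq2 or limma voom (0.125% of all genes by edgeR), and 3 passed an unadjusted p of 0.05, all higher (6.88% of all genes were higher by that rule). These were Ect2 (0.82, adjusted p = 0.29), Espl1 (0.56) and Ckap2 (0.57). In 0 of the 58 genes did all Il1bKO libraries lie above all VF libraries (779 of all 13630 tested genes did so). In 0 of the 58 did they all lie below, although more of all tested genes were separated that way than the other. Single libraries moved this median both ways, to -0.021 without Il1bKO_4w replicate 6 and to 0.43 without VF_4w replicate 6, and it was 0.62 without VF_4w replicate 6, Il1bKO_4w replicate 5 and Il1r1KO_4w replicate 5. Whether Il1bKO and Il1r1KO differed at 4 weeks alone was not tested.

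Over both times together, 0 of 58 genes were called in Il1bKO against VF by edgeR, DESeq2 or limma voom (0.139% of all genes by edgeR), 2 passed an unadjusted p of 0.05 (9.38% of all genes), and the median was 0.07. Espl1 had the lowest p (0.39, adjusted p = 0.483), then Racgap1 (0.27). In Il1r1KO against VF 0 were called by edgeR (0.169% of all genes), 13 passed an unadjusted p of 0.05, all higher (5.79% of all genes), and the median was 0.30, which was 0.18 without Il1r1KO_4w replicate 5. DESeq2 called 1 (0.419% of all genes higher) and limma voom 3 (1.2%). Espl1 (0.61 ± 0.17 SE, adjusted p = 0.163), Spc24 (0.64, adjusted p = 0.185) and Smc2 (0.35) had the lowest p. Between the knockouts, Il1r1KO against Il1bKO, 0 were called by edgeR, DESeq2 or limma voom (0.176% of all genes by edgeR) and 7 passed an unadjusted p of 0.05, 6 of them higher (14.1% of all genes). Smc4 (0.35, adjusted p = 0.243), Ckap2l (0.70) and Cdca3 (0.48) led, and the median was 0.25. It was 0.14 without Il1bKO_4w replicate 5 and 0.027 without VF_4w replicate 6, Il1bKO_4w replicate 5 and Il1r1KO_4w replicate 5.

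**Figure D5:**
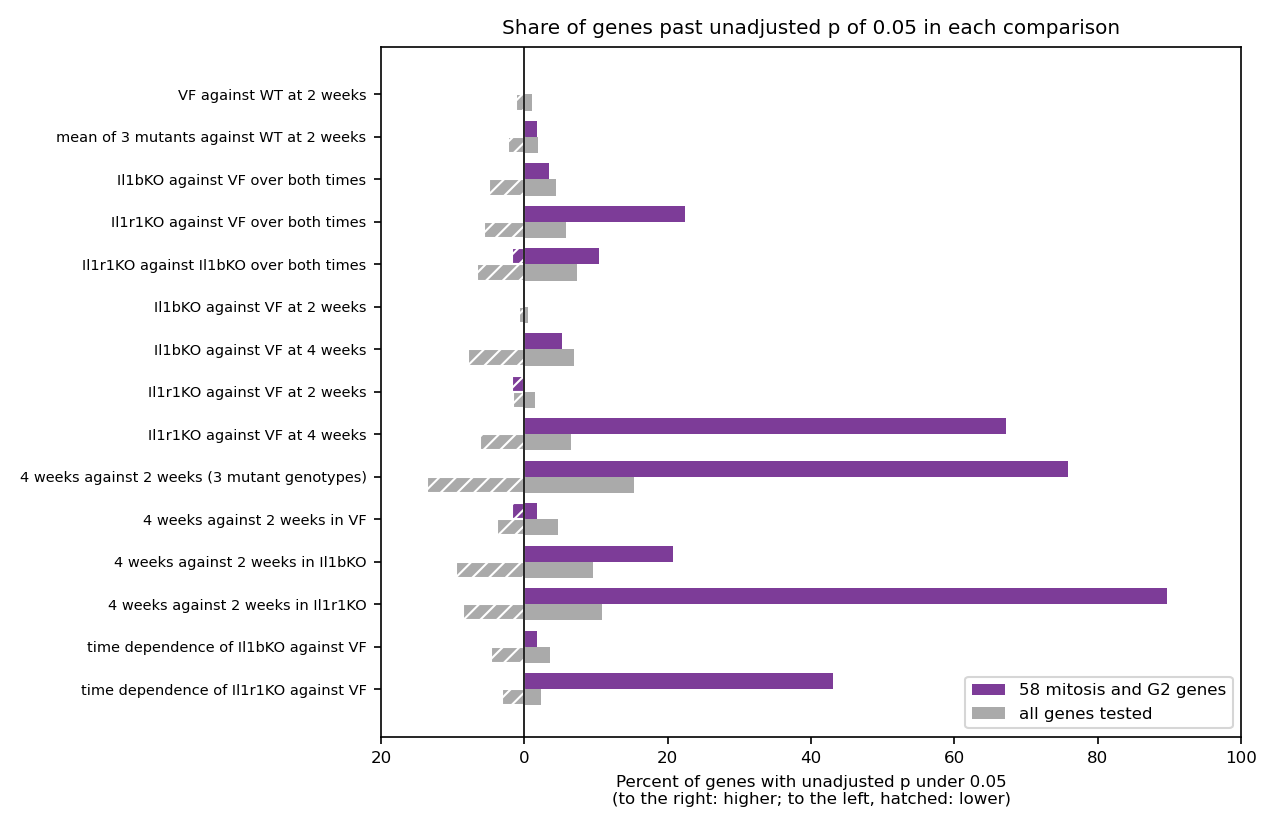
Percent of the 58 mitosis and G2 genes (purple) and of all tested genes (grey) with an unadjusted p under 0.05 by edgeR in each comparison, higher to the right and lower to the left. The longest purple bars are 4 against 2 weeks in Il1r1KO (52 of 58 higher), 4 against 2 weeks over the 3 mutant genotypes (44 of 58) and Il1r1KO against VF at 4 weeks (39 of 58).

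Neighbouring parts of the cell cycle program were followed in fixed lists over the contrast of 4 against 2 weeks in the 3 mutant genotypes, in which 14.4% of all genes were called and 8.53% were called higher. Of 52 other mitosis genes 29 rose and 0 fell, with a median of 0.50, led by the histone variant gene H2afz (0.61) and the kinetochore scaffold gene Knl1 (0.81). Of 52 S phase genes, which copy DNA, 32 rose and 0 fell, with a median of 0.47, led by Slbp (0.51) and Orc6 (0.56). The rise was therefore counted among genes of DNA replication as well as of mitosis. The remaining cell cycle lists gave lower medians, and the shares called among the APC/C, cohesin and kinase genes lay near that of all genes. Of 15 APC/C genes 3 rose (median 0.07; Anapc15 0.50, Anapc11 0.35), and of 12 cohesin and condensin II genes 2 rose (median 0.06; Smc3 0.21, Ncaph2 0.22). Of 15 MuvB, DREAM and NF-Y genes 2 rose and 2 fell (median 0.11), E2f4 (0.28) and Tfdp1 (0.33) being those that rose. Of 11 kinase genes of mitotic entry 1 rose, Chek1 (0.62; median 0.19; Ccnh, second by p, 0.19). Of 17 genes of G1 and quiescence 4 rose and 5 fell (median -0.12), with Btg1, an antiproliferative gene (-0.49), and Txnip (-0.61) of lowest p. In Il1r1KO against VF at 4 weeks the medians were 0.61 for the other mitosis genes, 0.53 for the S phase genes and 0.17 for the APC/C genes, with 0 called by edgeR in each (0.147% of all genes).

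Markers of the sorted cells and of other blood lineages were measured over the same contrast. Of 15 sort and stem cell marker genes 1 rose and 3 fell (14.4% of all genes were called). Mecom, a transcription factor gene of HSCs, fell from 277 to 424 CPM in the mutant libraries of 2 weeks to 131 to 264 CPM at 4 weeks, with no overlap (log2 fold change -0.80, adjusted p = 1.56e-04 by edgeR). Cd48, the gene of an antigen whose absence was used in the sort, rose from 0.606 to 5.51 CPM to 4.33 to 17.1 CPM (log2 fold change 1.81). The summed level of the 15 markers was 2712 to 3503 CPM in the 12 mutant libraries of 2 weeks, 1919 to 2913 in the 9 of 4 weeks and 3052 to 4209 in the 4 libraries labelled WT, and none of the 15 was at 0 in every library of a class. The sum also holds Cd48 and Flt3, listed as absent from the sorted cells. Kit alone was at 600 to 1049, 461 to 832 and 932 to 1282 CPM in these 3 classes. The lowest sum, the lowest Kit and the lowest Mecom were all in Il1r1KO_4w replicate 5, the library with the highest value of 44 of the 58 genes. Across the 25 libraries this sum ran against the mean level of the 58 genes (Pearson -0.76, Spearman -0.67, Pearson -0.73 without WT_2w replicates 1 and 3, Spearman -0.77 on deviations from group means), as a description of libraries that share batches. The part of these markers in the result was not tested.

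Lists of other lineages were counted in the same way and read against the same shares of all genes (14.4% called and 8.53% called higher). At an unadjusted p of 0.05, 3934 of all 13630 tested genes passed in this contrast. Of 15 megakaryocyte genes 3 rose, led by Plek (0.98) and Pf4 (1.69), with sums of 1262 to 2393 CPM at 2 weeks and 1237 to 4405 CPM at 4 weeks in the mutant libraries, the highest in VF_4w replicate 6, where Pf4 was at 1073 CPM. Of 17 erythroid genes 2 rose (Hbb-bs 1.43, Hba-a2 2.59), and their sums were 1767 to 3102 and 1830 to 3018 CPM. Of 15 neutrophil and monocyte genes 0 were called by edgeR and 3 passed an unadjusted p of 0.05 (Ly6c2 -2.61, Prtn3 -0.42), with sums of 593 to 900.2 and 442 to 771 CPM. Of 3 T and NK cell genes Nkg7 rose (1.23) and Klrb1c fell (-1.69). Of 4 B lineage genes and 6 tested mast cell and basophil genes 0 were called by edgeR, with 1 (Cd79b 0.27; Ebf1, second by p, 0.36) and 2 (Cpa3 0.98, Fcer1a 1.57) past an unadjusted p of 0.05. Of 12 mitochondrial RNA genes mt-Nd1 alone rose (0.23; mt-Co1 -0.11). Their part in the levels of the mitosis and G2 genes was not tested.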

How the data were processed

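RNA from sorted HSCs was made into unstranded SMART-Seq v4 libraries, per the labels' protocols. FastQC 0.11.5, STAR 2.7.10a, featureCounts, R 4.2.2 and build mm10 are named in the submitters' processing notes. The authors deposited raw gene counts, 13641 genes and 4 construct sequences in 25 libraries, used as deposited. Because libraries were unstranded, reads of overlapping antisense genes are not separated. Genes were filtered with filterByExpr, scaled by TMM and fitted once over the 7 groups with edgeR 4.0.16 (R 4.3.3), and p-values were adjusted over 13630 genes. DESeq2 1.42.0 and limma 3.58.1 (voom with quality weights), other scalings and filters and left-out libraries were alternatives. The script was tested on simulated data. CPM are TMM-scaled, and the pseudocount was 0.5. The 58 genes and the other lists were chosen with earlier results of these data known. Named genes are 12 fixed members (Mki67, Top2a, Ccnb1, Ccna2, Cdk1, Foxm1, Plk1, Aurkb, Birc5, Bub1b, Cdc20, Ube2c), every member called, the 3 of lowest p per comparison, the highest and lowest per kb in each role, the 3 most and 3 least correlated members, 8 genes outside the list, and the 2 of lowest p in each other list; others are given for separated groups. Comparisons within 1 genotype over time were added after the data were seen.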

Additional observations from a re-analysis of the deposited data

Results flagged for a closer look

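In 4 groups of 4 libraries, 13 quantities were checked for a library far from the other 3, by the gap to its nearest neighbour as a share of the group's range. Of 52 such checks 6 passed the 95% limit, and chance alone passes about 5% of them. Il1bKO_2w replicate 2 had the lowest mean level of the 58 genes in its group, 5.67 against a mean of 6.29 for the other 3 on the log2 scale (gap 0.908 of the range). In the same library Cdc20 was at 75.3 CPM against 120 to 126 (gap 0.90) and Bub1b at 50.6 CPM against 113 to 132 (gap 0.836). Mki67 was low in VF_2w replicate 2, at 173 CPM against 206 to 209 (gap 0.944), and in Il1r1KO_2w replicate 2, at 146 CPM against 217 to 221 (gap 0.958). Top2a was low in WT_2w replicate 1, at 163 CPM against 294 to 326 (gap 0.852).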

How the results depend on the processing

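The direction of the 58 genes' median held under every alternative run for VF against WT at 2 weeks, for Il1r1KO against VF at each time and over both, for Il1r1KO against Il1bKO, for 4 against 2 weeks over the 3 genotypes and in both knockouts, and for both interaction terms. Some of these medians became very small. The median was -0.0013 in Il1r1KO against VF at 2 weeks without VF_2w replicate 4. In VF against WT it was 0.012 without WT_2w replicate 1. With 1 library left out, the median in the 3 mutants against WT ran from -0.042 (without WT_2w replicate 1) to 0.27. In Il1bKO against VF it ran from -0.037 (without Il1bKO_4w replicate 6; -0.020 without VF_4w replicate 5) to 0.17 over both times, from -0.12 to 0.081 (without Il1bKO_2w replicate 2; 0.027 without VF_2w replicate 4) at 2 weeks, and from -0.021 (without Il1bKO_4w replicate 6) to 0.43 at 4 weeks. In 4 against 2 weeks in VF it ran from -0.10 (without VF_4w replicate 6) to 0.31. Leaving out VF_4w replicate 6, Il1bKO_4w replicate 5 and Il1r1KO_4w replicate 5 together gave medians of 0.62 in Il1bKO against VF at 4 weeks, -0.10 for 4 against 2 weeks in VF and 0.66 for the Il1bKO interaction term, and calls of 1 in Il1r1KO against VF over both times, 4 in it at 4 weeks, 18 for the 3 genotypes over time and 0 for Il1r1KO over time. DESeq2 called 1, 1 and 2 of the 58 in Il1r1KO against VF over both times, at 2 weeks and at 4 weeks, 38 in Il1r1KO over time and 1 for the Il1r1KO interaction term. Limma voom called 3 and 9 in Il1r1KO against VF over both times and at 4 weeks, and 44 over time. Leaving out 1 library gave 13 to 44 calls over time in the 3 genotypes, 0 to 38 in Il1r1KO over time and 0 to 3 in Il1r1KO against VF at 4 weeks, 3 being without VF_4w replicate 6. Fitting only the groups compared gave 4 calls in Il1r1KO over time, of which 1 was among the 18 of the main fit. With 1 genotype in place of 3, the calls over time were 0 in VF, 0 in Il1bKO and 18 in Il1r1KO (median 0.92). In a window of 100 bases before to 50 after the start, 24%, 8.69% and 2.09% of all promoters held CCAAT, CHR and both, and 68.8%, 70.8% and 56.2% of the 48. No pairing by replicate number was seen (median correlation of same-numbered deviations -0.034 at 2 weeks and 0.012 at 4 weeks). Such low correlations cannot show that the libraries were unpaired. With the replicate block, the median of Il1r1KO against VF at 4 weeks was 0.74 with 0 of 58 called, and no call among the 58 changed in any comparison that could be fitted with it. Times share no replicate number, so 4 against 2 weeks could not be fitted with the block. The cause of each dependence was not tested.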
